A study of Mus musculus with 8 samples.

Results

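The prokineticin and bombesin-like peptide system was described here through 8 named genes: the 5 receptors Prokr2, Prokr1, Nmbr, Grpr and Brs3 and the 3 ligands Prok2, Nmb and Grp. They were taken by name from the 32543 genes of the deposited expected-count and TPM matrices, and all 8 have a row in both. RNA had been sequenced from GFP-positive cells sorted from the amygdala of mouse embryos at E16.5, labelled as intercalated cells, which are small clusters of GABAergic neurons around the basolateral amygdala. The knockout libraries (4) came from Tshz1 GFP/RA embryos and the control libraries (4) from Tshz1 GFP/+ embryos, so the controls also carry 1 GFP allele of Tshz1. Tshz1, a teashirt-family gene, codes for a zinc finger protein that regulates transcription. Mice were kept on an outbred background, tissue of embryos of the same genotype was pooled before dissociation and sorting, and the labels do not describe what the RA allele lacks. Each library is named by its genotype and a title prefix (NX, NY, QT or RM) that 1 knockout and 1 control library share. The members were selected on CPM and counts from an earlier analysis of these libraries, among them the genotype difference of Prokr2 and the nearness of several members to the detection floor. Their genotype differences are therefore descriptions. Any adjusted p is a Benjamini-Hochberg value over all tested genes and, unless another tool is named, comes from the quasi-likelihood F test of edgeR.

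Prokineticins are small secreted proteins that act on a pair of closely related G protein-coupled receptors, Prokr1 and Prokr2, which raise intracellular calcium through Gq-type G proteins. Prok2 is known as a chemoattractant for neuroblasts that migrate to the olfactory bulb, and in humans mutations of PROK2 or PROKR2 occur in Kallmann syndrome, in which the olfactory bulbs and the GnRH neurons fail to form or migrate. In the mouse olfactory bulb, loss of Tshz1 has been linked to lower Prokr2 expression. The mammalian bombesin-like peptides are neuromedin B (Nmb), which prefers the receptor Nmbr, and gastrin-releasing peptide (Grp), which prefers Grpr. Brs3 is a related receptor with low affinity for both peptides. In the adult amygdala, Grpr is known from GABAergic interneurons that receive Grp from excitatory afferents.

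The 2 genes on which the genotype comparison turns are Prokr2 and Nmbr, and their promoters are shown for that reason, from 250 bases before to 50 after the RefSeq start (GRCm38.p6, the build called mm10 in the submitters' processing notes), each on its gene's strand. The Prokr2 window is chr2:132385398-132385697 on the minus strand and the Nmbr window is chr10:14759697-14759996 on the plus strand. Capitals mark each match to the E-box CANNTG, the letters bound by basic helix-loop-helix factors.
Prokr2: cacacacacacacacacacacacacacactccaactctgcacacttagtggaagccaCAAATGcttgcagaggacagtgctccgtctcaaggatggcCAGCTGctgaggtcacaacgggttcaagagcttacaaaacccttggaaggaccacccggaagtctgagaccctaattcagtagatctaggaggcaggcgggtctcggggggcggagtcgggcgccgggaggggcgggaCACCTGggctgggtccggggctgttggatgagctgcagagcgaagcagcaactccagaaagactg
Nmbr: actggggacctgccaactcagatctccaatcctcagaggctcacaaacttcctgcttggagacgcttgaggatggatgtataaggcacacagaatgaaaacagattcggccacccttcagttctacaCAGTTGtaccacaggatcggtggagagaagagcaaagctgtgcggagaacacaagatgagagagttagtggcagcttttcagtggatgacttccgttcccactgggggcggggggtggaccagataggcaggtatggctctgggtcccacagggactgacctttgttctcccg
The Prokr2 window held 3 E-boxes and the Nmbr window 1, and 72.3% of the 32851 RefSeq promoter windows of this length held at least 1. Another 5 motifs searched on both strands had 0 matches in either window: TATAAA (in 13.6% of all windows), TAATTA (5.29%), TGTTTAC (3.65%), TGACAG (19.2%) and TGACGTCA (1.79%). Guanine and cytosine made up 59.0% of the Prokr2 window and 53.7% of the Nmbr window, against a median of 52.7% over all windows. RefSeq promoter windows matched 7 of the 8 members by symbol, and Grp was not among them.

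In GRCm38, Prokr2 spans 132337733 to 132385447 of chromosome 2 (minus strand) and Nmbr spans 14705591 to 14770850 of chromosome 10 (plus strand, a span that begins upstream of the RefSeq start used above). Prokr1 (87578591 to 87590743) and Prok2 (99711299 to 99726392) share chromosome 6, both on its minus strand. Nmb is at 80902227 to 80905076 of chromosome 7 (minus strand) and Grp at 65872820 to 65886596 of chromosome 18 (plus strand). On chromosome X are Grpr (163513904 to 163549677, minus strand) and Brs3 (57043074 to 57048758, plus strand). All are protein-coding. In the GENCODE annotation, exons of Sec11a overlap those of Nmb on the same strand, and an antisense model, B230364G03Rik, overlaps exons of Nmbr. The labels name a kit that leaves strand unmarked, so fragments of the antisense model cannot be told from those of Nmbr.

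Libraries held 6384571 to 13295690 expected counts in the knockout and 5785612 to 14535867 in the control. CPM values below are scaled by library total and by composition factors (trimmed mean of M values, TMM). A count of 3 in a library was taken as the floor of detection, which corresponded to 0.204 to 0.499 CPM in the knockout and 0.186 to 0.545 CPM in the control libraries. These floors cover counting error only. As a check of the labels, Tshz1 stood at 55.9 to 121 CPM in knockout and 240.0 to 492 CPM in control libraries. All 6 intercalated cell markers examined (Foxp2, Meis2, Tshz1, Pax6, Drd1 and Oprm1) and all 7 GABAergic ones were above the floor in every library. Pallial glutamatergic markers (7 genes) summed to 144 to 402 CPM in knockout and 29.0 to 266 CPM in control libraries. Vascular markers (3 genes) summed to 0 to 2.66 CPM in knockout and 0 to 13.6 CPM in control libraries. Hypothalamic and medial amygdala markers (5 genes) summed to 27.4 to 57.6 CPM in knockout and 6.88 to 52.0 CPM in control libraries. On average Lhx6 held most of these sums (means of 32.7 CPM in knockout and 31.6 CPM in control), and Otp was at 0 throughout. Markers of dividing cells (4 genes) summed to 141 to 931 CPM in knockout and 104 to 625 CPM in control libraries. The control NX library stood apart from the other controls for 2 members, Prokr2 and Grpr, and values without it are given beside them.

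Prokr2 was the one member with a level far above the floor in every library, and Nmb stayed above the floor in 8 of 8 as well. Prokr1 was above it in 6 of 8 libraries, Nmbr in 4, Prok2 and Grpr in 3 each, Grp in 2 and Brs3 in 0. On the TPM scale, which is per length and allows levels of different genes to be set side by side, Prokr2 ranked first of the 8 members in every library. It averaged 15.0 ± 3.49 TPM in knockout and 32.1 ± 11.6 TPM in control libraries (SD, n = 4 each), above 77.0% to 82.9% of all genes in the knockout libraries and 87.6% to 91.0% in the control libraries. In each knockout library Nmb came next, and Prokr2 was 2.29 to 8.92 times higher than it. In the control libraries the next gene was Nmbr (NX and NY) or Nmb (QT and RM), and Prokr2 was 3.83 to 5.22 times higher.

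Many neighbours in the order below Prokr2 did not differ beyond their spread. Mean TPM in the knockout was 4.66 ± 2.90 for Nmb, 0.705 ± 1.01 for Prok2, 0.643 ± 0.436 for Prokr1, 0.485 ± 0.684 for Grp, 0.390 ± 0.320 for Grpr and 0.0275 ± 0.055 for Brs3, with Nmbr at 0. In the control it was 5.57 ± 2.92 for Nmbr, 4.87 ± 2.24 for Nmb, 0.448 ± 0.489 for Prokr1, 0.445 ± 0.482 for Prok2, 0.368 ± 0.609 for Grpr and 0.318 ± 0.430 for Grp, with Brs3 at 0. Nmbr and Nmb in the control, and Prokr1, Prok2, Grpr and Grp in either genotype, therefore lay within 1 SD of each other.

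**Figure D1:**
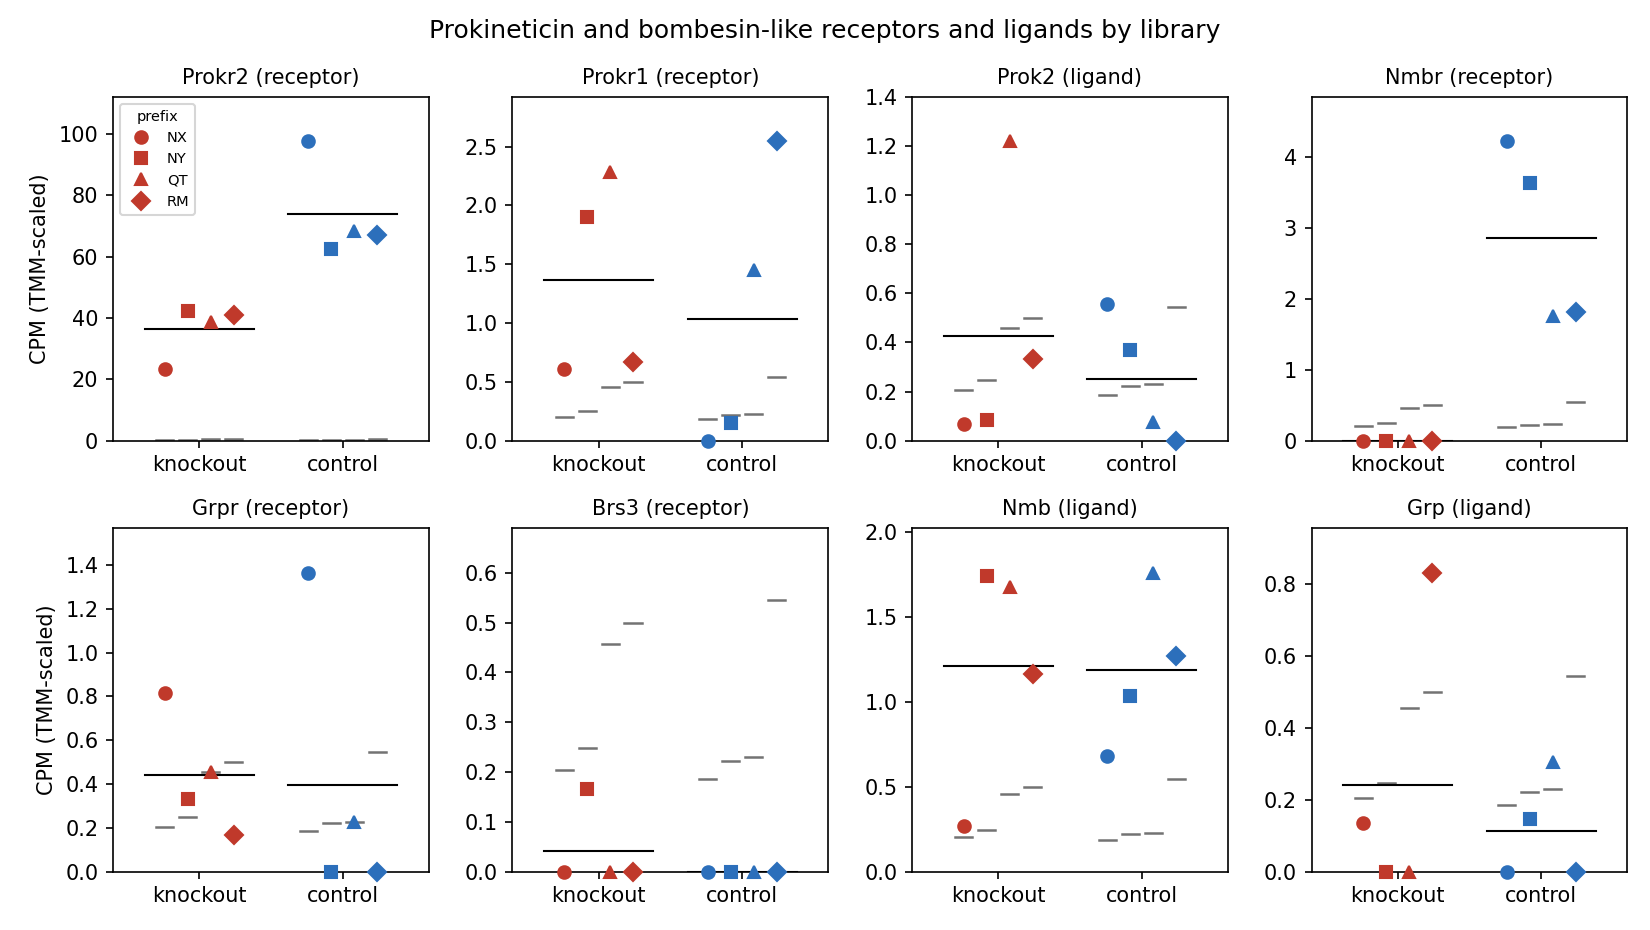
Each panel gives 1 gene's CPM (vertical axis) in the 4 knockout libraries (left, red) and the 4 control libraries (right, blue), with the title prefix as the symbol, the group mean as a black line and the floor of 3 counts in each library as a short grey line. Prokr2 runs from 23.3 to 42.2 CPM in knockout and from 62.6 to 97.7 CPM in control libraries, Nmbr is at 0 in all 4 knockout libraries, and the other 6 genes overlap between genotypes, many of them at or under the floor.

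The mean level of Prokr2 was 2.04-fold lower in the knockout. Its CPM was 23.3 (NX), 42.2 (NY), 38.7 (QT) and 41.1 (RM) in knockout libraries, against 97.7 (NX), 62.6 (NY), 68.4 (QT) and 67.2 (RM) in control libraries, from 247 to 509 and from 370 to 1575 expected counts. The genotypes did not overlap, and within each prefix the knockout value was the lower one (4 of 4). Means were 36.3 ± 8.80 CPM in the knockout and 74.0 ± 15.98 CPM in the control (SD, n = 4 each), a log2 fold change of -1.03 (SE 0.25). Prokr2 was not called (edgeR adjusted p = 0.474). Groups without overlap were found for 1.46% of the 14157 tested genes with the knockout lower and for 1.13% with the knockout higher. The NX pair holds both ends of the range: without the control NX library the log2 fold change was -0.87, and without both NX libraries, a setting added after the data were seen, it was -0.70. In sorted pools, fewer cells that carry a transcript and less of it per cell cannot be told apart.

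Summed marker levels of the sorted cells and of other cell types overlapped between genotypes. The 6 intercalated cell markers include Tshz1, the gene altered by the genotype, which was called lower. The other 5 summed to 1194 to 1915 CPM in knockout and 1421 to 2585 CPM in control libraries, with 5 fitted lower and 0 called (1 at an unadjusted p under 0.05 in edgeR). With Tshz1 the sums were 1256 to 1993 CPM in knockout and 1661 to 3077 CPM in control libraries. On average Meis2 held most of either sum (1236 ± 265 CPM in knockout, 1458 ± 315 CPM in control), so the sums say little about the rest. Drd1 had 2.99 ± 1.74 CPM in knockout and 8.86 ± 3.82 CPM in control libraries. Foxp2 had 281 ± 153 and 478 ± 278 CPM, and Pax6 29.8 ± 10.1 and 30.7 ± 12.2 CPM, in the same order. The EGFP reporter had 24.6 ± 12.8 CPM in knockout and 47.3 ± 16.8 CPM in control libraries, overlapping between genotypes. Within prefixes EGFP was lower in the knockout in 4 of 4, and it was not called (log2 fold change -0.935, SE 0.372, edgeR unadjusted p = 0.0264). Of the 7 GABAergic markers 6 were fitted lower and 0 called, with sums of 1788 to 1952 CPM in knockout and 1626 to 2470 CPM in control libraries. Gad2 held most of these sums on average (1262 ± 212 CPM in knockout, 1372 ± 296 CPM in control). Slc32a1 had 43.4 ± 6.58 CPM in knockout and 64.0 ± 10.55 CPM in control libraries. All 5 microglial markers were fitted lower and 0 called. Their sums were 6.13 to 37.1 CPM in knockout and 4.34 to 88.3 CPM in control libraries. Of the 3 oligodendrocyte lineage markers, 2 were fitted lower and 0 called. They summed to 2.45 to 44.4 CPM in knockout and 0.558 to 47.8 CPM in control libraries. Of the 4 markers of dorsal LGE and olfactory bulb, 1 was fitted lower and 0 called, with sums of 227 to 302 CPM in knockout and 229 to 377 CPM in control libraries. Of the 4 markers of dividing cells, 1 was fitted lower and 0 called. Mki67 had 376 ± 232.5 CPM in knockout and 194 ± 132 CPM in control libraries. In the pallial glutamatergic class 3 of 7 were fitted lower and 0 called. In the hypothalamic and medial amygdala class 1 of 3 tested was fitted lower and 0 called. The 1 vascular marker tested was fitted lower and not called. The part of all these classes in the Prokr2 difference was not tested.

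RSEM divides fragments that map to several places, which gives counts that are not whole. Prokr2 counts were whole within 0.005 in 2 of 8 libraries, and the largest part beyond a whole number was 0.19, in the control NX library with 1575 counts. Prokr1 counts were whole in 8 of 8 libraries.

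Nmbr, the neuromedin B receptor, was detected in the control libraries alone. It had 0 expected counts in all 4 knockout libraries, against 68 (NX), 49 (NY), 23 (QT) and 10 (RM) in the control libraries, or 4.22, 3.63, 1.76 and 1.82 CPM. All 8 counts were whole. Whole counts do not set Nmbr fragments apart from those of the antisense model over its exons, which has no row in the matrices. The control mean was 2.86 ± 1.26 CPM (SD, n = 4), and the knockout floor of 3 counts per library averaged 0.352 CPM. The control mean was thus 8.11 times the mean knockout floor, a ratio of means that leaves out the spread between libraries. Within RM and QT the distance was smaller, with controls at 1.82 and 1.76 CPM against knockout floors of 0.499 and 0.457 CPM. Nmbr was not called at the threshold of 0.05 (edgeR adjusted p = 0.0964). The low-count filter kept Nmbr through its 4 control libraries alone, so that a tested Nmbr had to differ in this direction.

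A total of 150 counts stands behind these values, and the call depended on the model. DESeq2 called Nmbr lower (adjusted p = 8.68e-05), as did limma-trend on log2(TPM + 1) and log2(TPM + 0.1) (0.00702 and 0.00626), edgeR without composition factors (0.0464) and edgeR with no low-count filter (0.0356). Limma-voom did not (0.103), and over all 22 alternatives the adjusted p ran from 8.68e-05 to 0.737. Leaving out any 1 library kept edgeR's log2 fold change between -8.23 and -7.63 and its adjusted p between 0.172 and 0.310. The fitted value depends on the small count that edgeR adds and is no bound. Among the 14157 tested genes, Nmbr was the one gene (0.00706%) with 0 counts in every knockout library and more than 3 in every control library, a criterion set after its values were seen.

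Of the 8 members, 4 passed the filter (Prokr2, Nmbr, Prokr1 and Nmb) and 0 were called by edgeR, beside 0.0353% of all tested genes (5 of 14157). By direction, 0 members were called lower, beside 0.0283% of tested genes, and 0 higher, beside 0.00706%. At an unadjusted p under 0.05, edgeR, DESeq2 and limma-voom each gave the same count of 2, Prokr2 and Nmbr, both lower. In edgeR 3.62% of all tested genes (512 of 14157) passed that limit, beside 638 genes in DESeq2 and 534 in limma-voom. Prokr2 had been selected with its genotype difference known, and a tested Nmbr had to be lower. Setting the count of 2 beside all genes is therefore no test of enrichment. The tools were run on the same libraries, so their like counts are not independent. DESeq2 called 1 member (Nmbr), beside 0.276% of the 14144 genes it gave an adjusted p, and limma-voom called 0, beside 0.0141% of tested genes. The other settings that called Nmbr called 0.0636% of genes (no composition factors), 0.0933% (no low-count filter), 0.0706% (log2(TPM + 1)) and 0.0353% (log2(TPM + 0.1)).

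Prokr1, the other prokineticin receptor, was near the floor and uneven in both genotypes. Its expected counts were 9 (NX), 23 (NY), 15 (QT) and 4 (RM) in knockout libraries, against 0 (NX), 2 (NY), 19 (QT) and 14 (RM) in control libraries. The knockout libraries were all above the floor and the NX and NY controls at or under it, while QT and RM controls reached the knockout range or passed it. Means were 1.37 ± 0.854 CPM in the knockout and 1.04 ± 1.199 CPM in the control, a log2 fold change of 0.48 (SE 1.10; edgeR adjusted p = 1.00). The knockout value was higher in 3 of 4 prefixes. With an SE of this size the data neither set the genotypes apart nor show that they are alike. Whether Prokr2 and Prokr1 differ in their genotype difference was not tested.

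Prok2, the ligand of both receptors, was barely detected. It had 1 (NX), 1 (NY), 8 (QT) and 2 (RM) expected counts in knockout libraries and 9 (NX), 5 (NY), 1 (QT) and 0 (RM) in control libraries, 27 in all. Only knockout QT, control NX and control NY were above the floor. Means were 0.425 ± 0.542 CPM in the knockout and 0.251 ± 0.259 CPM in the control, and the filter removed the gene before the test. Prok1, the second prokineticin and not a member of the set, had 0 counts in all 8 libraries. At this depth Prokr2 was thus above the floor in 8 of 8 libraries, Prok2 in 3 and Prok1 in 0.

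Among the bombesin-like peptides, Nmb was low, from 0.272 to 1.74 CPM in knockout and 0.682 to 1.76 CPM in control libraries. It had 4 (NX), 21 (NY), 11 (QT) and 7 (RM) expected counts in knockout libraries and 11 (NX), 14 (NY), 23 (QT) and 7 (RM) in control libraries, above the floor in all 8. Means were 1.21 ± 0.678 CPM in the knockout and 1.19 ± 0.452 CPM in the control, a log2 fold change of 0.02 (SE 0.74; edgeR adjusted p = 1.00), whose sign changed in 11 of 22 alternatives. Nmb counts were whole although Sec11a, with 2194 counts in the knockout and 2621 in the control libraries together, shares exon sequence with it in the annotation. Grp had 2 (NX), 0 (NY), 0 (QT) and 5 (RM) counts in knockout libraries and 0 (NX), 2 (NY), 4 (QT) and 0 (RM) in control libraries, 13 in all. The genotypes overlapped for both peptides, and Grp was too sparse to compare.

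The other bombesin receptors, Grpr and Brs3, had too few counts for their genotype patterns to be set against that of Nmbr. Grpr had 12 (NX), 4 (NY), 3 (QT) and 1 (RM) expected counts in knockout libraries and 22 (NX), 0 (NY), 3 (QT) and 0 (RM) in control libraries. The control mean of 0.398 ± 0.653 CPM rests on the NX library at 1.36 CPM, since the other 3 controls ran from 0 to 0.230 CPM, and the knockout mean was 0.443 ± 0.276 CPM. Brs3 had 2 counts in the knockout NY library and 0 in the other 7, below the floor throughout. With no low-count filter, edgeR gave unadjusted p of 0.933 for Grpr, 0.164 for Brs3, 0.672 for Prok2 and 0.610 for Grp. A direct test of Nmbr against Grpr was not made.

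Prokr2 and Nmbr were ranked by TPM together with 27 other peptide receptors listed as coupling to Gq-type proteins, a list written from general knowledge. The member receptors Prokr1, Grpr and Brs3 were left out of this ranking. Prokr2 ranked first of these 29 in 7 of 8 libraries and second in the knockout RM library, where Ednrb, an endothelin receptor, had 16.6 TPM against 10.8 TPM for Prokr2. Nmbr was at 0 in the knockout libraries, and in the control libraries it ranked 3 (NX and NY), 4 (QT) and 5 (RM) of the 29. Only 4 of the 27 passed the filter, and 0 were called by edgeR. The one with the smallest p was Ntsr1, a neurotensin receptor, at 3.05 ± 1.69 TPM in knockout and 10.2 ± 9.97 TPM in control libraries (log2 fold change of counts -1.71, SE 0.52; edgeR adjusted p = 1.00). The control NX library had 24.95 TPM.

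**Figure D2:**
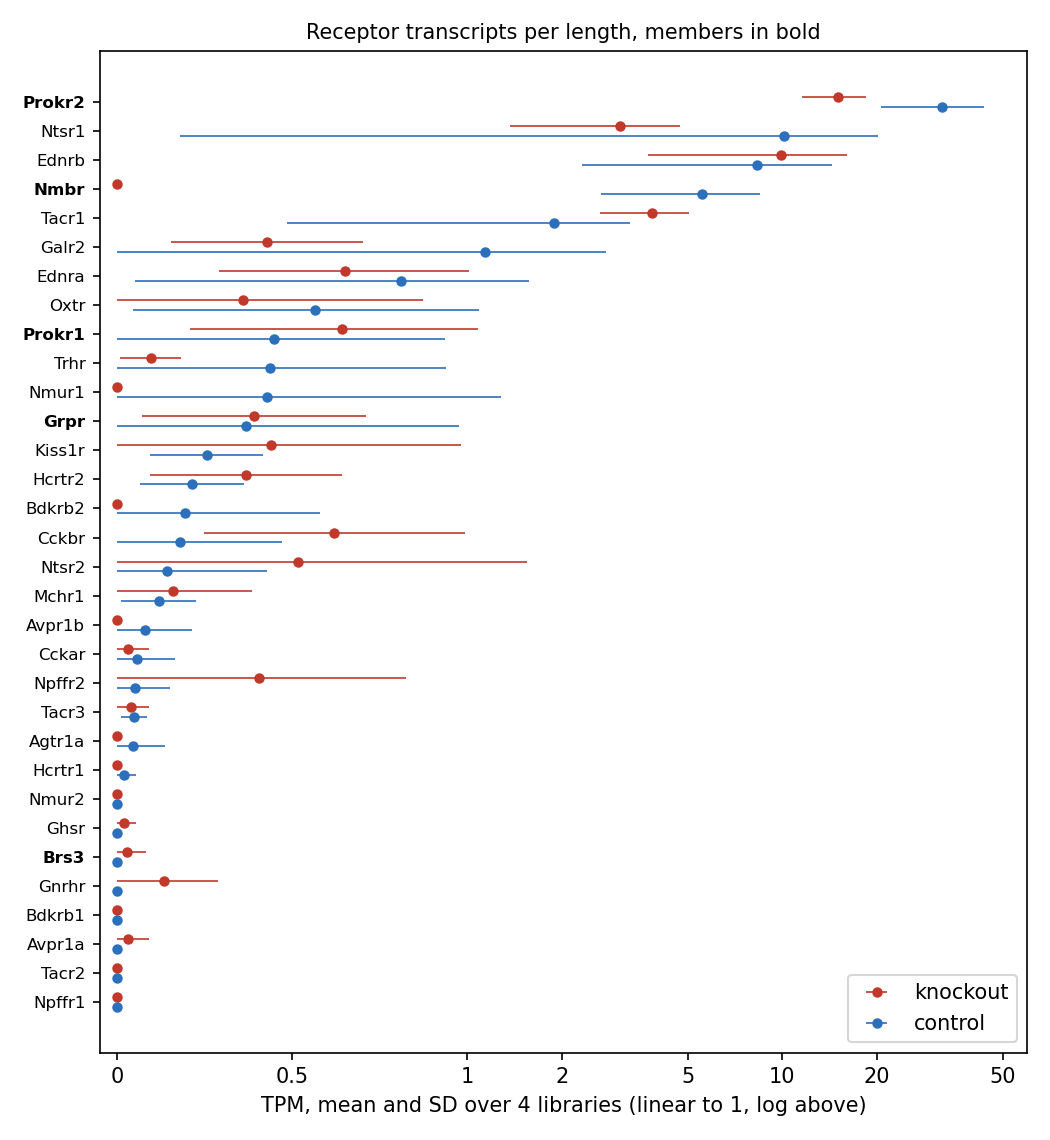
The horizontal axis gives TPM (linear up to 1 and logarithmic above), with points for the mean and bars for the SD over 4 knockout libraries (red, upper) and 4 control libraries (blue, lower), and genes are ordered by the control mean with the 5 member receptors in bold. Prokr2 is at the top in both genotypes (15.0 TPM in knockout, 32.1 TPM in control), Nmbr is at 5.57 TPM in control and 0 in knockout, and Prokr1, Grpr and Brs3 lie below 1 TPM.

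None of the transducers tested that such receptors use was called. Of 26 genes for G protein alpha subunits, phospholipases, IP3 receptors, arrestins, receptor kinases and accessory proteins, 22 were tested, 0 rose and 0 fell in edgeR. The 4 not tested were Gna14, Itpr3, Mrap and Mrap2, all under 1 TPM on average in either genotype. Of the 22, 14 were fitted lower and 8 higher without passing, with a median log2 fold change of -0.12, beside -0.01 over all tested genes. At an unadjusted p under 0.05 there was 1 lower gene (Gnaz, a Gi-family subunit) and 1 higher (Gnai3), beside 3.62% of all tested genes. Gnaz had 14.7 ± 2.77 CPM in knockout and 23.6 ± 4.30 CPM in control libraries (log2 fold change -0.68, SE 0.27; edgeR adjusted p = 1.00). Gnai3 had 181 ± 27.5 CPM in knockout and 126 ± 32.6 CPM in control libraries (log2 fold change 0.523, SE 0.229). Neither gene overlapped between genotypes, as for 1.46% of tested genes with the knockout lower and 1.13% with it higher. The knockout was lower in 4 of 4 prefixes for Gnaz and in 0 of 4 for Gnai3.

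Levels per length are given for the gene of each class with the highest mean TPM over all 8 libraries. Gnaq, the Gq subunit that activates phospholipase C, had 104 ± 37.8 TPM in knockout and 104 ± 34.1 TPM in control libraries (SD, n = 4 each). Gnao1, the main neuronal Go subunit, had 331 ± 89.5 TPM in knockout and 288 ± 56.5 TPM in control libraries. Gnas, the Gs subunit, had 544 ± 144 TPM in knockout and 578 ± 180 TPM in control libraries. Gnaq, Gnao1 and Gnas each overlapped between genotypes. Plcb4, a phospholipase C of the beta class, had 31.3 ± 10.7 TPM in knockout and 22.96 ± 4.40 TPM in control libraries. Plcb1, of the same class, had 15.3 ± 9.06 TPM in knockout and 24.3 ± 12.6 TPM in control libraries, so Plcb4 had the higher mean in the knockout and Plcb1 in the control. Itpr1, an IP3 receptor of the endoplasmic reticulum, had 5.002 ± 3.04 TPM in knockout and 4.79 ± 3.92 TPM in control libraries. Arrb1, which desensitises activated receptors, had 21.6 ± 6.84 TPM in knockout and 24.5 ± 6.42 TPM in control libraries. Grk4, a receptor kinase, had 38.1 ± 16.6 TPM in knockout and 24.5 ± 10.5 TPM in control libraries. Mrap2, an accessory protein that dampens prokineticin receptor signalling, was at 0 counts in 5 of 8 libraries.

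Genes tied to Kallmann syndrome and GnRH neuron migration (19, without the members) were examined because Prok2 and Prokr2 belong to that group. Of these, 15 were tested, 0 rose and 0 fell in edgeR, and 9 were fitted lower with a median log2 fold change of -0.10. The count at an unadjusted p under 0.05 in edgeR was 1, beside 3.62% of all tested genes. It was Il17rd, a membrane antagonist of FGF signalling. It had 27.2 ± 11.95 CPM in knockout and 62.6 ± 12.6 CPM in control libraries, with no overlap and the knockout lower in 4 of 4 prefixes (log2 fold change -1.21, SE 0.33; edgeR adjusted p = 0.745). A lack of overlap with the knockout lower was found for 1.46% of all tested genes. Fgfr1, the receptor in the FGF pathway, had 32.7 ± 7.68 CPM in knockout and 35.9 ± 11.7 CPM in control libraries. Fgf8 was at 0 in all 8 libraries.

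The genes whose profile over the 8 libraries lay closest to Prokr2 were found by the root mean square difference of log2 CPM, each gene centred on its own mean, among 9359 genes whose log2 CPM averaged 3 or more. They were Foxp4, a forkhead transcription factor (0.238), Erbb4, a neuregulin receptor (0.247), Rbm20, a splicing factor (0.268), Ptprm, a receptor tyrosine phosphatase (0.270), and Tgfbrap1 (0.275), beside a median of 0.712 over all genes compared. Each had a lower mean in the knockout. Foxp4 had 37.3 ± 3.48 CPM in knockout and 70.9 ± 15.0 CPM in control libraries, and Ptprm had 57.9 ± 15.3 CPM in knockout and 126 ± 31.0 CPM in control libraries. None of the 5 was called, with edgeR adjusted p from 0.382 to 1.00. The likeness is a description that includes the genotype difference itself.

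**Figure D3:**
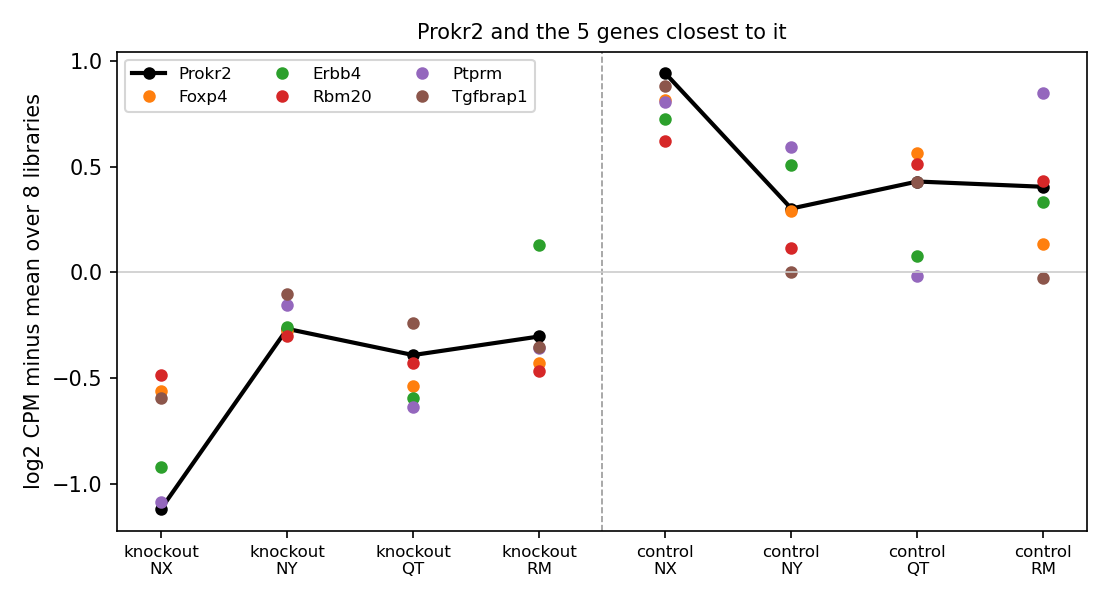
The vertical axis gives log2 CPM minus each gene's mean over the 8 libraries, with the 4 knockout libraries left of the dashed line and the 4 control libraries right of it; Prokr2 is the black line and the 5 closest genes are coloured points. All 6 are at or below 0.13 in the knockout libraries and at or above -0.03 in the control libraries, and the NX libraries hold the lowest and the highest Prokr2 value.

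**Figure D4:**
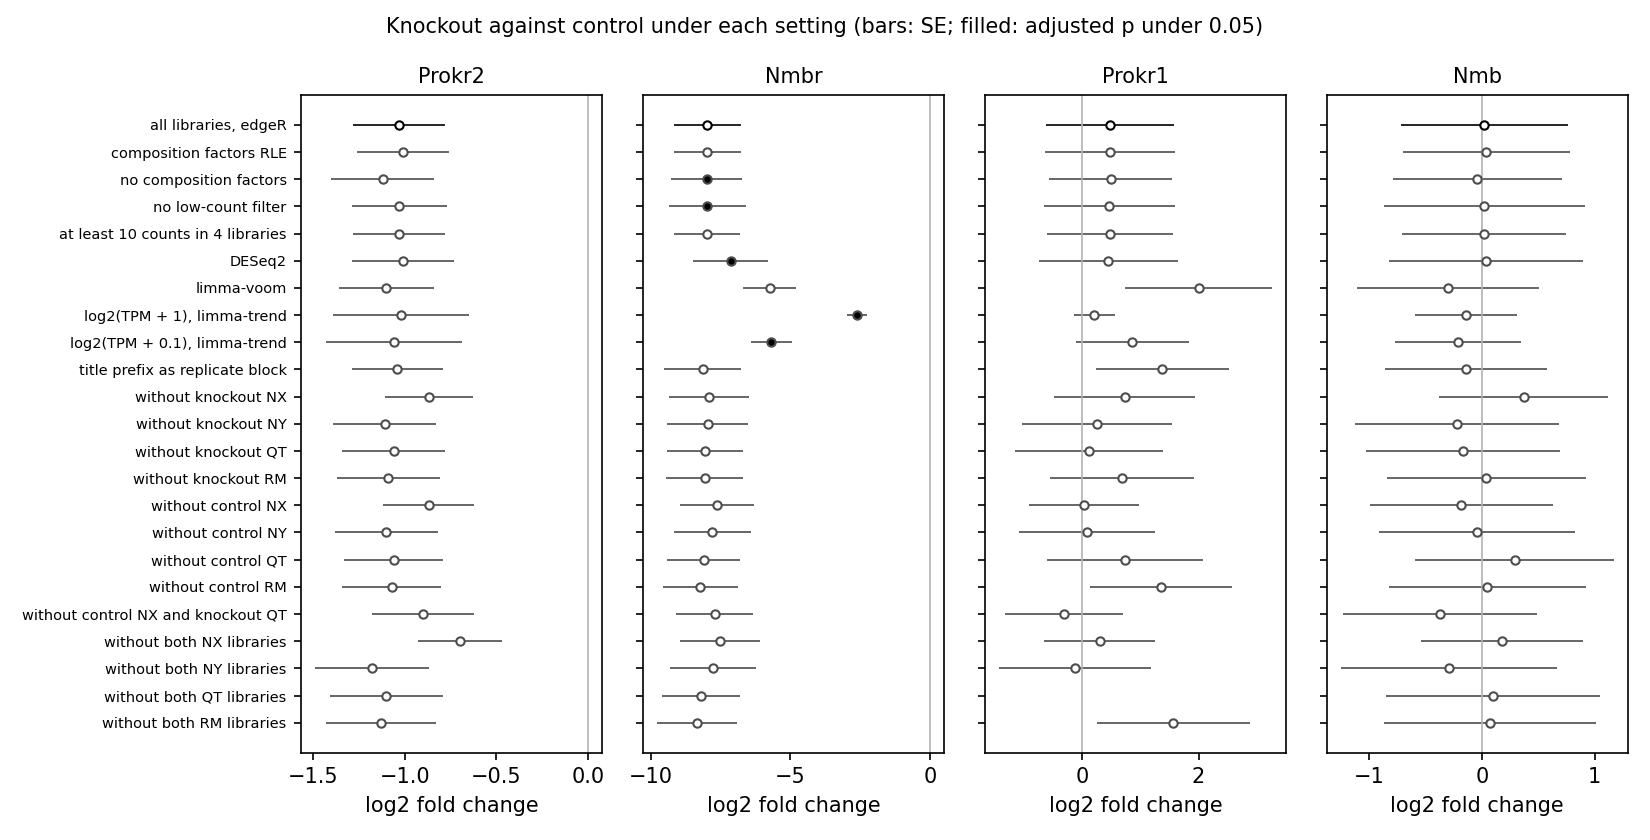
Each panel gives 1 member's log2 fold change, knockout over control, with its SE as a bar, under the edgeR test used throughout (top) and each alternative (below), and filled points passed an adjusted p of 0.05. Prokr2 stays between -1.18 and -0.70 without passing, Nmbr stays negative and passes in 5 of 22 alternatives, and Prokr1 and Nmb lie on both sides of 0.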

How the data were processed

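RNA of the sorted pools went through NuGEN Ovation amplification and Nextera XT library preparation, per the labels' protocols. Per the submitters' processing notes, reads were handled with RSEM 1.2.22, Bowtie2 and Trimmomatic 0.33 on mm10. Neither a Bowtie2 version nor an annotation release is given in the sources used here. The deposited matrices hold RSEM expected counts, and TPM scaled to length and library total by the authors, per the file headers; they equalled the sample files in 16 columns (largest difference 0).

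Expected counts were rounded, and genotypes were compared by edgeR 4.0.16 (R 4.3.3; filterByExpr, TMM, glmQLFTest, genotype as the single term, Benjamini-Hochberg over 14157 genes, called at an adjusted p under 0.05). SE came from the quasi-likelihood F. The log2 CPM used a prior count of 2. DESeq2 1.42.0 and limma 3.58.1 were alternatives. Replicates are pools of embryos, not stated to be separate litters, so p-values measure the spread between pools. Members, lists and alternatives were chosen with earlier results of these data known. Named genes were the members, Prok1, Tshz1, each list's gene with the smallest p, the most abundant gene of each transducer class and the 5 genes closest to Prokr2. EGFP, Gnai3, Plcb1, Gna14, Itpr3, Mrap, Ednrb, Fgfr1 and Fgf8 were named after their values were seen, as were the cell type markers given singly. Positions are from GENCODE (GRCm38).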

Additional observations from a re-analysis of the deposited data

Results flagged for a closer look

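Of 14 groups of 4 libraries examined, 4 held a value far from the other 3. The limit used is passed by chance in about 1 in 20 groups of continuous values; 3 of these 4 groups hold sparse counts with zeros, for which that rate was not measured. Prokr2 in the control NX library was 97.7 CPM, with the other controls at 62.6 to 68.4 CPM, and its log2 fold change without that library was -0.87. Grpr in the same library was 1.36 CPM, from 22 counts, with the other controls at 0 to 0.230 CPM. Grp in the knockout RM library was 0.832 CPM, from 5 counts, and Brs3 in the knockout NY library was 0.166 CPM, from 2 counts, which is under the floor.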

How the results depend on the processing

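Prokr2 was lower and not called in 22 of 22 alternatives, with log2 fold changes from -1.18 to -0.70 and adjusted p from 0.0735 (DESeq2) to 1.00. Nmbr was lower in 22 of 22, from -8.34 to -2.61. Where its call changed, the cause was not tested. Prokr1 turned negative without control NX and knockout QT (-0.31) and without both NY libraries (-0.12); without both QT libraries it did not pass the filter. Nmb turned negative with no composition factors (-0.04), limma-voom (-0.30), log2(TPM + 1) (-0.14), log2(TPM + 0.1) (-0.21) and the replicate block (-0.14), without control NX and knockout QT (-0.37) and without both NY libraries (-0.29), and ran from -0.22 to 0.37 with 1 library left out; these values are smaller than their SE. Over all genes edgeR called 5, and 9 with no composition factors, 19 with no low-count filter, 39 by DESeq2, 2 by limma-voom and 10 with log2(TPM + 1); the cause was not tested. With 1 library left out it called 0 to 5 (328 to 905 at an unadjusted p under 0.05). It called 3 without both NX libraries and 0 without both NY (430 unadjusted), both QT (262) or both RM libraries (470) and without control NX and knockout QT (353). With a replicate block for the title prefix it called 28 genes, with Prokr2 at -1.04 (adjusted p = 0.209) and Nmbr at -8.14 (0.088), and the block changed no call of a member. Same-prefix libraries deviated together for NX, NY and RM (correlations 0.385, 0.303 and 0.450). For QT the correlation was 0.066, about that of the QT knockout with the RM control (0.072). The labels do not say what the prefix marks, so the fit with it as a block was kept as an alternative. Counts under about 25 per library limit every member but Prokr2 and, in part, Nmbr.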

Other observations

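RSEM reports for each gene a length averaged over its transcripts by their estimated share. For Prokr2, with 3 transcripts, it was 4169 to 4529 bases in knockout libraries and 4456 to 4496 bases in control libraries. The shortest averages were in knockout NX (4169 bases) and knockout QT (4304 bases). The transcripts behind these averages were not examined.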
